A study of Homo sapiens with 9 samples.

Results

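The expression of 44 genes of Wnt signalling was examined in LNCaP:C4-2 cells, a castrate-resistant prostate cancer cell line that was derived from LNCaP. The genes were chosen by name and found by symbol among 60675 genes. They comprised 18 ligands, 15 receptors and co-receptors, 3 secreted antagonists, 5 target and feedback genes and 3 genes of the transcriptional output. RNA-seq libraries came from 3 groups of 3: cells expressing a non-targeting hairpin (shScramble), cells expressing a hairpin against the m6A methyltransferase METTL3 (guide 2), and cells labelled with a different METTL3 hairpin (guide 1). In each group the hairpin was carried by a doxycycline-inducible pLKO.1-puro lentivirus packaged in HEK293T cells, and transduced cells were selected with puromycin. All groups received 1 μg/ml doxycycline for 6 days in phenol red-free medium with 10% charcoal-stripped serum, although the sample titles name a vehicle. The sources do not say whether the libraries of a group came from separate cultures, so the p-values measure the spread between these libraries, which may be technical. Of the 44 genes, 43 had more than 3 counts in at least 1 library, the exception being WNT1, and 38 passed the filter on low counts.

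Wnt proteins are secreted, lipid-modified ligands that bind Frizzled receptors at the cell surface. With the co-receptors LRP5 and LRP6 they stabilise β-catenin, which enters the nucleus and drives transcription with the TCF/LEF factors (the canonical branch). Through Frizzled with ROR1, ROR2 or RYK, ligands such as WNT5A act without β-catenin on cell polarity and movement. In prostate cancer, Wnt signalling is known for its links with castrate resistance and with loss of luminal identity.

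Levels are given as TMM-normalised CPM (each gene's counts scaled to the library's normalised size), and fold changes as log2 values with their standard error (SE). A gene was called raised or lowered where edgeR's quasi-likelihood test gave an adjusted p-value (Benjamini-Hochberg over all 19278 genes tested) under 0.05 and the change was at least 1.5-fold. Library totals lay between 21899501 and 30897639 counts.

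METTL3 itself, the targeted gene, was measured at 29.8, 31.7 and 32.9 CPM in the shScramble libraries, 16.5, 16.5 and 15.8 CPM with guide 2 and 29.3, 30.1 and 29.6 CPM in the libraries labelled guide 1. It was lowered with guide 2 (log2 fold change −0.95, SE 0.0687, adjusted p = 2.97e-12). In the libraries labelled guide 1 the groups overlapped and the log2 fold change was −0.08 (SE 0.0633, adjusted p = 0.251). These libraries are therefore named by their label throughout, and no direction read from them is attributed to METTL3.

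The identity of the cells was checked with lists of marker genes, which, like the Wnt genes, were chosen with earlier results of these data known. The defining luminal genes (7, HOXB13 among them) were all expressed, and their summed level was 2071 to 2095 CPM in the shScramble libraries, 2225 to 2366 CPM with guide 2 and 1040.1 to 1069 CPM in the libraries labelled guide 1. FOLH1 made up most of these sums, at means of 1209, 1300 and 543 CPM. With guide 2, 1 of the 7 was raised (HOXB13, log2 fold change 0.78) and 1 lowered (KLK3, −0.82). In the libraries labelled guide 1, 0 were raised and 4 lowered (FOLH1, HOXB13, KRT8 and KRT18). A list of 7 genes of the HEK293 line, the line that packages the virus, summed to 28.7 to 32.1 CPM with shScramble, 3.51 to 5.28 CPM with guide 2 and 311.8 to 326.5 CPM in the libraries labelled guide 1. All 7 of these genes were lowered with guide 2 and raised in the libraries labelled guide 1. None was at 0 in all libraries, and NEFM was at 0 in replicate 2 of guide 2. Of a list of 8 genes of the prostate cancer lines PC3 and DU145, 7 were tested. The list summed to 29.8 to 31.2, 5.42 to 5.98 and 149.3 to 190.6 CPM in the same order of groups. VIM made up most of these sums, at means of 23.1, 3.56 and 152.4 CPM. Of the 7, 6 were lowered with guide 2 and 4 raised in the libraries labelled guide 1. VIM, CAV1, CAV2 and CD44 shared both directions with the HEK293 line genes. ANXA1 and LGALS1 were lowered with guide 2 but not called in the libraries labelled guide 1. TGFBI was called in neither comparison with shScramble and was higher with guide 2 than with guide 1. Of 4 basal epithelial genes KRT5 and TP63 were at 0 in all libraries, and the list summed to at most 0.199 CPM in any library. Of 6 fibroblast genes, 3 had at most 3 counts in any library, DCN among them at 0. The list summed to 43.4 to 46.6, 37.3 to 40.6 and 19.6 to 26.2 CPM. COL1A1 made up most of these sums, at means of 43.4, 35.3 and 21.0 CPM. PDGFRB, the other tested gene, was raised with guide 2 (log2 fold change 1.33) and lowered in the libraries labelled guide 1 (−0.74). The part of these marker genes in the Wnt gene results below was not tested, and in bulk RNA a change in the share of a kind of cell cannot be told apart from a change in the RNA of each cell.

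**Figure D1:**
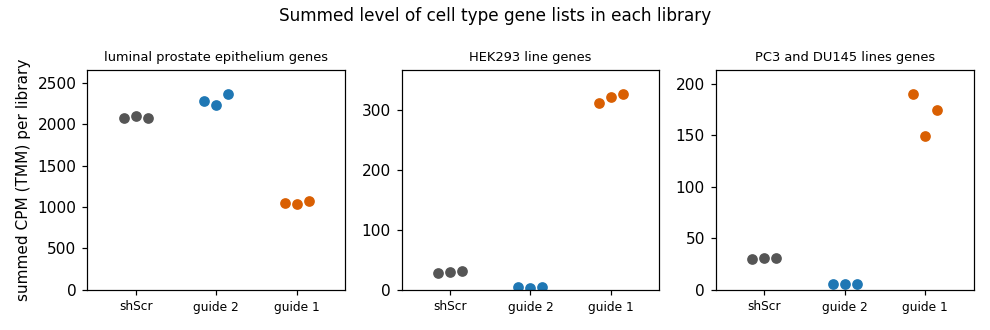
Summed TMM-normalised CPM (vertical axis, linear from 0) of 7 luminal, 7 HEK293 line and 8 PC3 and DU145 line genes, with 1 point for each of the 9 libraries. The HEK293 line list reaches at most 5.28 CPM with guide 2 and at least 311.8 CPM in the libraries labelled guide 1.

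With guide 2, 9 of the 38 tested Wnt genes were raised and 9 were lowered against shScramble (47.4% called), where 29.3% of all tested genes were called (8.85% raised and 20.4% lowered). For the libraries labelled guide 1, 14 were raised and 7 were lowered (55.3%), where 37.7% of all tested genes were called (21.2% raised and 16.5% lowered). In the direct comparison of guide 2 with guide 1, 10 were higher and 14 lower with guide 2 (63.2%), where 47.3% of all tested genes were called (19.1% higher and 28.2% lower). The median log2 fold change of the 38 genes was 0.03, 0.31 and −0.05 in these 3 comparisons, and that of all tested genes was −0.04, −0.02 and −0.06. DKK3 and LGR5 passed the filter on low counts through the libraries labelled guide 1 alone. Both are among the 14 raised there and the 14 lower in the direct comparison. The comparisons share libraries and are not independent. With libraries scaled by their totals alone, the median of all genes with guide 2 moved to −0.19, and 4 Wnt genes were raised and 10 lowered, so that the raised share of their calls went from 50% to 28.6% and that of all calls from 30.2% to 17.2%.

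Of the 38 tested genes, 12 were called in opposite directions in the comparisons with shScramble. WNT2B, WNT3, WNT3A, WNT5B, WNT11, FZD10, DKK3 and LGR5 (8 genes) were lowered with guide 2 and raised in the libraries labelled guide 1, a pattern that 7.56% of all tested genes showed. WNT6, WNT7B, WNT10A and FZD1 (4 genes) were raised with guide 2 and lowered in the libraries labelled guide 1, as were 1.61% of all tested genes, the call of WNT6 in the latter being lost under several other settings. WNT9A was the only gene lowered in both comparisons, and none was raised in both. DKK3 and LGR5 passed the filter on low counts through the libraries labelled guide 1 alone and so had to differ from them, and the 8 genes include both.

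**Figure D2:**
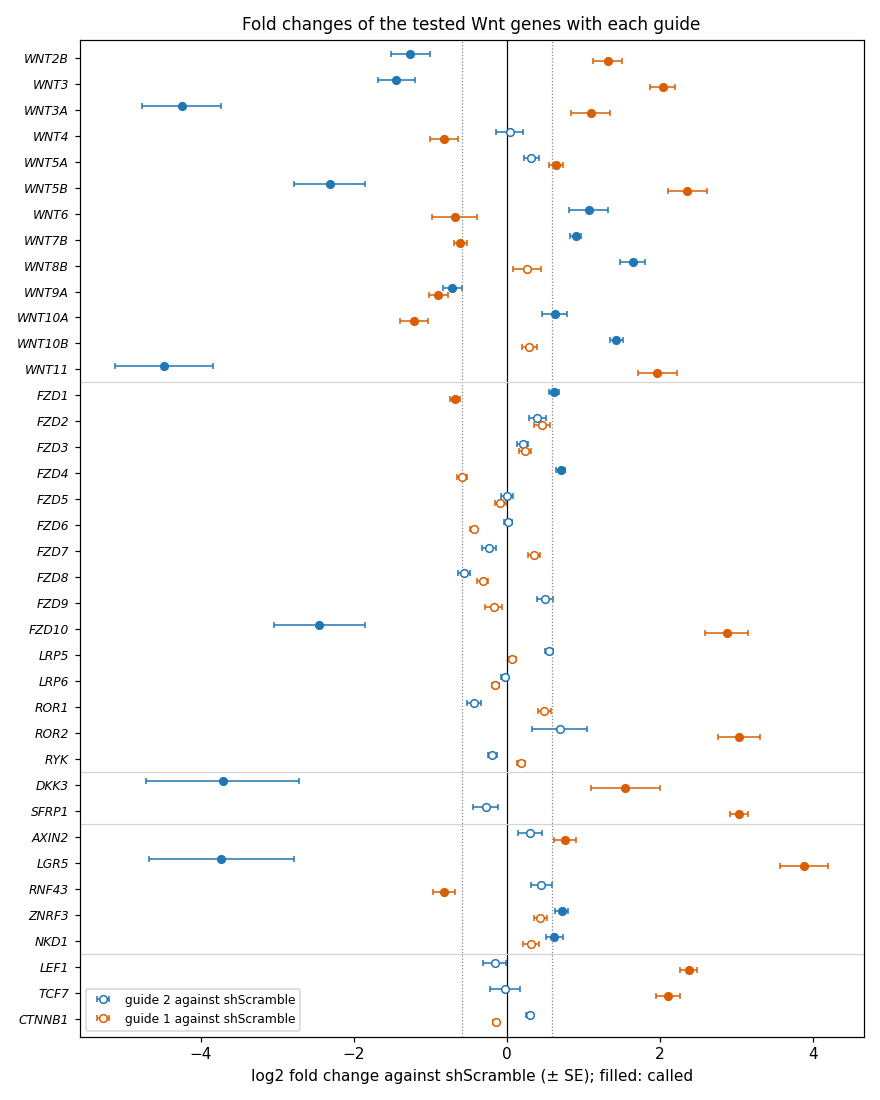
The log2 fold change (horizontal axis) with its SE of each of the 38 tested Wnt genes, ordered by role, for guide 2 against shScramble (blue) and guide 1 against shScramble (orange). Filled points were called, dotted lines mark 1.5-fold, and 13 genes were called in both comparisons, 12 of them on opposite sides of 0.

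The ligands are described in order of their direction. Among the 13 tested ligands, 5 were raised and 6 lowered with guide 2 (84.6% called), where 29.3% of all tested genes were called. The libraries labelled guide 1 had 6 raised and 5 lowered (84.6%), where 37.7% of all tested genes were called. WNT3A is a canonical ligand, widely used to activate β-catenin in culture. Its counts were 51, 32 and 39 with shScramble, 4, 0 and 1 with guide 2 and 76, 108 and 80 in the libraries labelled guide 1, which correspond to means of 1.45, 0.0729 and 3.07 CPM. The 3 groups did not overlap. WNT3A was lowered with guide 2 (log2 fold change −4.25, SE 0.518, adjusted p = 7.18e-08), and the ratio of shScramble to guide 2 was 20.01 with an exact 95% counting interval of 8.34 to 62.7. In the libraries labelled guide 1 it was raised (1.09, SE 0.252, adjusted p = 0.000391). This interval, like the others below, covers counting error only.

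WNT9A, which lies beside WNT3A and also acts mainly through β-catenin, was at 9.50, 10.1 and 10.7 CPM with shScramble, 7.02, 5.06 and 6.43 CPM with guide 2 and 4.80, 5.90 and 5.51 CPM in the libraries labelled guide 1. All libraries of both hairpin groups were below all shScramble libraries. It was lowered with guide 2 (−0.71, SE 0.124, adjusted p = 1.68e-05) and in the libraries labelled guide 1 (−0.90, SE 0.122, adjusted p = 2.58e-07). Between the guides the log2 difference was 0.19 (SE 0.133, adjusted p = 0.207). Without replicate 2 of guide 2, the fold change with guide 2 was −0.58, under 1.5-fold.

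In the authors' GRCh38 coordinates WNT3A occupies 228007051 to 228061260 on the plus strand of chromosome 1 and WNT9A 227918656 to 227947898 on the minus strand, so the genes point away from each other with their starts 59153 bases apart and 2 other genes between them. Since these neighbours were lowered together with guide 2 and went apart in the libraries labelled guide 1, the 250 bases upstream of each RefSeq start (GRCh38.p14) are shown, chr1:228006748-228006997 on the plus strand for WNT3A and chr1:227947933-227948182 on the minus strand for WNT9A. They run 5′ to 3′ on the strand of the gene, and capitals mark CG dinucleotides.
WNT3A: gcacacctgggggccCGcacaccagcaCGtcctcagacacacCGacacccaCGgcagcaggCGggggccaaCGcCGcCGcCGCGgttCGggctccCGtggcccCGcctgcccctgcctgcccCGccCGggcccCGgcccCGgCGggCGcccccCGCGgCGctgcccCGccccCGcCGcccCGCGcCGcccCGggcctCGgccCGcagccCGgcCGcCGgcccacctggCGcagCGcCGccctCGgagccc
WNT9A: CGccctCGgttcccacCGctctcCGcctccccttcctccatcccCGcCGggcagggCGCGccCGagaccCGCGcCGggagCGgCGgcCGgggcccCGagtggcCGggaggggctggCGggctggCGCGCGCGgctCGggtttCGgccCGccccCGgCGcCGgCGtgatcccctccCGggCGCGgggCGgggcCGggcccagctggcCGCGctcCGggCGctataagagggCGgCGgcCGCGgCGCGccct
The WNT3A stretch held 38 CG dinucleotides and 86.0% G or C, and more CG than 96.7% of 35116 promoters of the same length. The WNT9A stretch held 44 CG dinucleotides and 84.4% G or C, and more CG than 99.2% of them, the median being 11. The TCF/LEF core motif CTTTGAT was searched for on either strand in promoters from 250 bases upstream to 50 bases downstream of the start. It was found in 0 of 34 promoters of the 29 Wnt genes that had an entry, and in 919 of all 35116 promoters (2.62%). The absence of these letters from this window bears on nothing outside it.

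WNT11, WNT5B, WNT3 and WNT2B were also lowered with guide 2 and raised in the libraries labelled guide 1. WNT11, a ligand of the β-catenin-independent branch, had 26, 22 and 15 counts with shScramble, 0, 0 and 2 with guide 2 and 89, 83 and 76 in the libraries labelled guide 1. Its RNA was thus almost absent with guide 2. The ratio of shScramble to guide 2 was 25.8 with a counting interval of 6.86 to 218, and the log2 rise in the libraries labelled guide 1 was 1.97 (SE 0.257, adjusted p = 1.28e-07). WNT5B, a relative of WNT5A, had 19, 36 and 25 counts with shScramble, 1, 10 and 2 with guide 2 and 140, 113 and 164 in the libraries labelled guide 1. The replicates of guide 2 differed among themselves, but all were below the shScramble libraries. The log2 fold changes were −2.31 (SE 0.463, adjusted p = 0.00012) and 2.36 (SE 0.251, adjusted p = 5.46e-09).

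WNT3, a canonical ligand needed for early axis formation, was at 2.07, 1.85 and 1.79 CPM with shScramble, 0.650, 0.518 and 0.951 CPM with guide 2 and 8.45, 7.73 and 7.35 CPM in the libraries labelled guide 1. It differed in both directions by more than the replicates did (−1.45, SE 0.241, adjusted p = 8.76e-06, and 2.03, SE 0.16, adjusted p = 5.84e-12). WNT3 and WNT9B start 47 bases apart, head to head on chromosome 17, and WNT9B had at most 6 counts in any library. WNT2B was at 2.49, 1.54 and 1.93 CPM, then 1.13, 0.717 and 0.634 CPM, then 5.05, 4.89 and 4.91 CPM in the same order of groups. It too was lowered and raised without overlap of the groups (−1.26, SE 0.253, adjusted p = 0.000103, and 1.32, SE 0.185, adjusted p = 4.29e-07). Of the WNT2B exons, 21.2% overlap a gene on the opposite strand, and reads of the pair could not be told apart where the counting ignored strand.

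**Figure D3:**
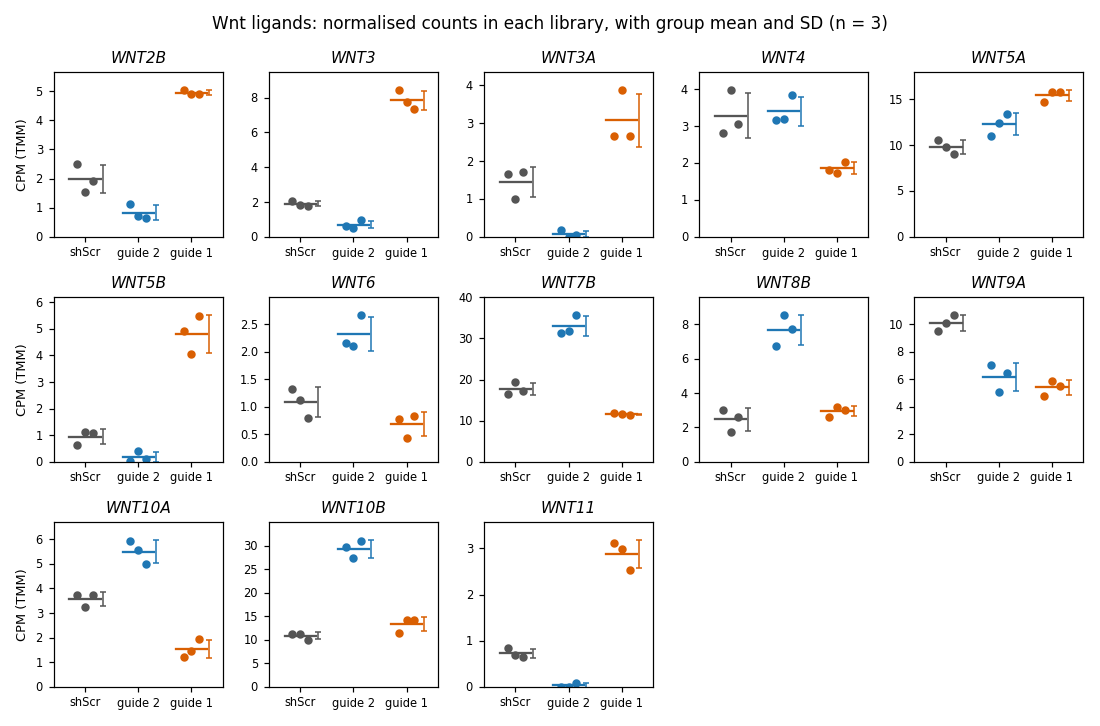
TMM-normalised CPM (vertical axis, linear from 0) of the 13 tested ligands, with 1 point for each library, the group mean as a line and the SD as a bar (n = 3). WNT3A and WNT11 are near 0 with guide 2, whereas WNT10B is near 29.3 CPM with guide 2 and between 9.98 and 14.2 CPM in the other libraries.

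The ligands raised with guide 2 included the most abundant. WNT10B, a canonical ligand, was at 11.2, 11.3 and 9.98 CPM with shScramble, 29.7, 27.3 and 31.03 CPM with guide 2 and 11.54, 14.2 and 14.2 CPM in the libraries labelled guide 1. All libraries of guide 2 were above all others, and the direct comparison of the guides gave 1.14 (SE 0.0858, adjusted p = 1.65e-12). The log2 rise with guide 2 was 1.43 (SE 0.0881, adjusted p = 1.06e-13), and in the libraries labelled guide 1 the value was 0.30 (SE 0.0929, adjusted p = 0.00647), under 1.5-fold. WNT1, whose start is 6690 bases from that of WNT10B on chromosome 12, had at most 2 counts in any library.

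WNT7B, a ligand made by epithelia, was at 16.4, 19.3 and 17.3 CPM with shScramble, 31.3, 31.8 and 35.7 CPM with guide 2 and 11.7, 11.6 and 11.46 CPM in the libraries labelled guide 1. The 3 groups were apart. It was raised with guide 2 (0.90, SE 0.0765, adjusted p = 7.73e-11) and lowered in the libraries labelled guide 1 (−0.61, SE 0.083, adjusted p = 2.61e-07), the latter close to the 1.5-fold limit and −0.54 without replicate 2 of shScramble. WNT8B was at 3.04, 1.76 and 2.63 CPM, then 6.76, 8.53 and 7.75 CPM, then 2.63, 3.2 and 3.04 CPM in the same order. It was raised with guide 2 (1.64, SE 0.168, adjusted p = 2.47e-09), and the libraries labelled guide 1 overlapped the shScramble libraries (0.27, SE 0.185, adjusted p = 0.205).

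WNT6 and WNT10A lie 6129 bases apart on chromosome 2 on the same strand with no gene between them, and their values moved alike across the groups. WNT10A, a ligand best known from teeth and hair, was at 3.75, 3.26 and 3.72 CPM with shScramble, 5.93, 5.58 and 4.98 CPM with guide 2 and 1.23, 1.44 and 1.94 CPM in the libraries labelled guide 1. WNT6 had 41, 36 and 18 counts, then 50, 53 and 59, then 22, 12 and 25 in the same order. Guide 2 was the highest group for both genes. WNT10A was raised with guide 2 (0.62, SE 0.159, adjusted p = 0.00136) and lowered in the libraries labelled guide 1 (−1.21, SE 0.185, adjusted p = 1.66e-06). The rise with guide 2 was under 1.5-fold without replicate 2 of shScramble (0.56), without replicate 1 of guide 2 (0.57), with library totals alone (0.47) and with a minimum mean of 1 CPM (0.58). WNT6 was raised with guide 2 (1.07, SE 0.254, adjusted p = 0.000692), whereas in the libraries labelled guide 1 the groups overlapped and the log2 fold change of −0.68 had an adjusted p of 0.0431. That call ended without replicate 1 (−0.52) or replicate 2 of shScramble (−0.67), without replicate 2 of guide 1 (−0.45), and with DESeq2 (adjusted p = 0.124).

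WNT4, which acts in urogenital development, was at 2.81, 3.98 and 3.06 CPM with shScramble, 3.16, 3.19 and 3.85 CPM with guide 2 and 1.82, 1.73 and 2.04 CPM in the libraries labelled guide 1. Only the last group lay apart (−0.82, SE 0.185, adjusted p = 0.000303), and with guide 2 the value was 0.04 (SE 0.175, adjusted p = 0.86). WNT5A, the best-known ligand of the β-catenin-independent branch, was at 10.6, 9.79 and 9.06 CPM, then 11.002, 12.4 and 13.4 CPM, then 14.7, 15.7 and 15.8 CPM. The groups did not overlap, but only the rise in the libraries labelled guide 1 passed 1.5-fold (0.65, SE 0.0926, adjusted p = 5.8e-07), the log2 fold change with guide 2 being 0.32 (SE 0.0969, adjusted p = 0.00598).

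The 5 ligands that did not pass the filter had few counts, and no fold change of theirs was tested in the model above. WNT16 had 0 counts in all shScramble libraries, 0, 0 and 1 with guide 2 and 10, 15 and 12 in the libraries labelled guide 1. With shScramble set to a floor of 3 counts over the group, the ratio of guide 1 to shScramble was 12.25. From the counts themselves, the lower limit of the counting interval was 9.475. WNT7A had 5, 0 and 6 counts with shScramble, 0, 0 and 1 with guide 2 and 0 in all libraries labelled guide 1. The ratio of shScramble to guide 2 was 9.02 with a counting interval of 1.31 to 388.3. WNT2 had 1, 1 and 2 counts, then 2, 6 and 7, then 3, 3 and 5, with a ratio of guide 2 to shScramble of 4.57 and an interval of 1.46 to 18.9. With no filter on low counts, edgeR's quasi-likelihood test called neither gene with guide 2 (adjusted p = 0.138 for WNT7A and 0.0876 for WNT2). These 2 intervals pool the libraries and leave out the spread between them. WNT9B had at most 6 counts in any library and WNT1 at most 2, so that no difference was detectable at this depth.

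To compare ligands with each other, counts were also divided by gene length and rescaled within each library (TPM). In the shScramble libraries WNT10B was the most abundant ligand (13.9 ± 0.829 TPM, SD, n = 3), followed by WNT7B (11.8 ± 0.856), WNT9A (8.61 ± 0.534) and WNT5A (4.41 ± 0.338). These 4 were ordered without overlap between neighbours, whereas WNT5A, WNT8B and WNT10A overlapped in turn. With guide 2, WNT10B (35.3 ± 2.70 TPM), WNT7B (20.6 ± 1.70) and WNT8B (11.47 ± 1.23) were the most abundant, and in the libraries labelled guide 1 WNT10B (17.9 ± 2.38), WNT7B (8.08 ± 0.236), WNT5A (7.20 ± 0.435) and WNT3 (6.37 ± 0.439). The summed TPM of all 18 ligands was 57.9, 55.9 and 56.1 with shScramble, 88.7, 86.0 and 96.7 with guide 2 and 63.1, 72.0 and 68.2 in the libraries labelled guide 1. WNT10B and WNT7B together made up 44.1%, 48.4% and 43.96% of that sum with shScramble, 62.6%, 60.4% and 62.3% with guide 2 and 36.8%, 38.9% and 39.1% in the libraries labelled guide 1. The number of ligands above 1 TPM was 11, 10 and 10 with shScramble, 8 in each library with guide 2 and 13, 12 and 13 in the libraries labelled guide 1. The summed ligand level was highest, and the number of ligands above 1 TPM lowest, with guide 2.

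All 15 receptors and co-receptors were tested, of which 2 were raised and 1 lowered with guide 2, and the same numbers in the libraries labelled guide 1. This was 20% in each comparison, where 29.3% and 37.7% of all tested genes were called. Between the guides, 3 were higher and 4 lower with guide 2 (46.7%), where 47.3% of all tested genes were called. FZD1, a broadly expressed Frizzled receptor, was at 37.0, 38.5 and 32.3 CPM with shScramble, 56.1, 56.4 and 53.0 CPM with guide 2 and 23.0, 22.4 and 22.4 CPM in the libraries labelled guide 1. The 3 groups were apart, with guide 2 highest. It was raised with guide 2 (0.61, SE 0.0622, adjusted p = 2.16e-09) and lowered in the libraries labelled guide 1 (−0.67, SE 0.0658, adjusted p = 5.34e-10). The rise with guide 2 was under 1.5-fold without replicate 3 of shScramble (0.55), with library totals alone (0.46) and with a minimum mean of 1 CPM (0.57).

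FZD4, the receptor for the ligand Norrin as well as for Wnts, was at 37.9, 38.1 and 35.3 CPM with shScramble, 62.6, 60.5 and 58.8 CPM with guide 2 and 23.0, 26.5 and 24.8 CPM in the libraries labelled guide 1. It was raised with guide 2 (0.71, SE 0.059, adjusted p = 5.34e-11), and in the libraries labelled guide 1 its log2 fold change of −0.58 (SE 0.0622, adjusted p = 2.8e-09) was just under 1.5-fold. That value passed 1.5-fold with library totals alone (−0.60), with a minimum mean of 1 CPM (−0.59), with only the 6 libraries compared (−0.585), without replicate 2 of guide 1 (−0.64) and without replicate 3 of shScramble (−0.62). Of its exons, 18.9% overlap a gene on the opposite strand. FZD9 was at 9.63, 11.9 and 9.36 CPM, then 15.1, 14.1 and 14.6 CPM, then 9.99, 7.84 and 9.72 CPM. Guide 2 was above the other groups, and the gene was called between the guides (0.67, SE 0.106, adjusted p = 2.48e-06) but not against shScramble (0.50, SE 0.105, adjusted p = 0.000201). Without replicate 2 of guide 1 the former was under 1.5-fold (0.58), and without replicate 2 of shScramble the latter passed it (0.62). FZD7, a receptor common in stem cells, showed the reverse order, at 15.3, 16.3 and 13.8 CPM, then 12.3, 13.5 and 12.9 CPM, then 18.7, 19.1 and 20.4 CPM, and was lower with guide 2 than with guide 1 (−0.59, SE 0.0843, adjusted p = 4.75e-07), close to the 1.5-fold limit and under it without replicate 1 (−0.55) or 3 (−0.58) of guide 2 or replicate 3 of guide 1 (−0.55).

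FZD10, a receptor of restricted expression in adult tissue, had 13, 12 and 10 counts with shScramble, 3, 0 and 2 with guide 2 and 79, 85 and 97 in the libraries labelled guide 1. The groups did not overlap. The ratio of shScramble to guide 2 was 5.74 with a counting interval of 2.24 to 18.8, and the log2 rise in the libraries labelled guide 1 was 2.87 (SE 0.282, adjusted p = 5.66e-10). ROR2, a receptor tyrosine kinase for WNT5A, had 11 counts in each shScramble library, 9, 18 and 17 with guide 2 and 100, 81 and 95 in the libraries labelled guide 1. It was raised in the latter (3.03, SE 0.271, adjusted p = 8.49e-11), while guide 2 overlapped shScramble (0.69, SE 0.359, adjusted p = 0.097). ROR1, its relative, was at 13.2, 13.6 and 12.3 CPM, then 9.96, 10.2 and 8.92 CPM, then 18.8, 18.4 and 17.8 CPM. It differed between the guides (−0.92, SE 0.0877, adjusted p = 2.24e-10), but against shScramble neither group passed 1.5-fold (−0.43 and 0.49).

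**Figure D4:**
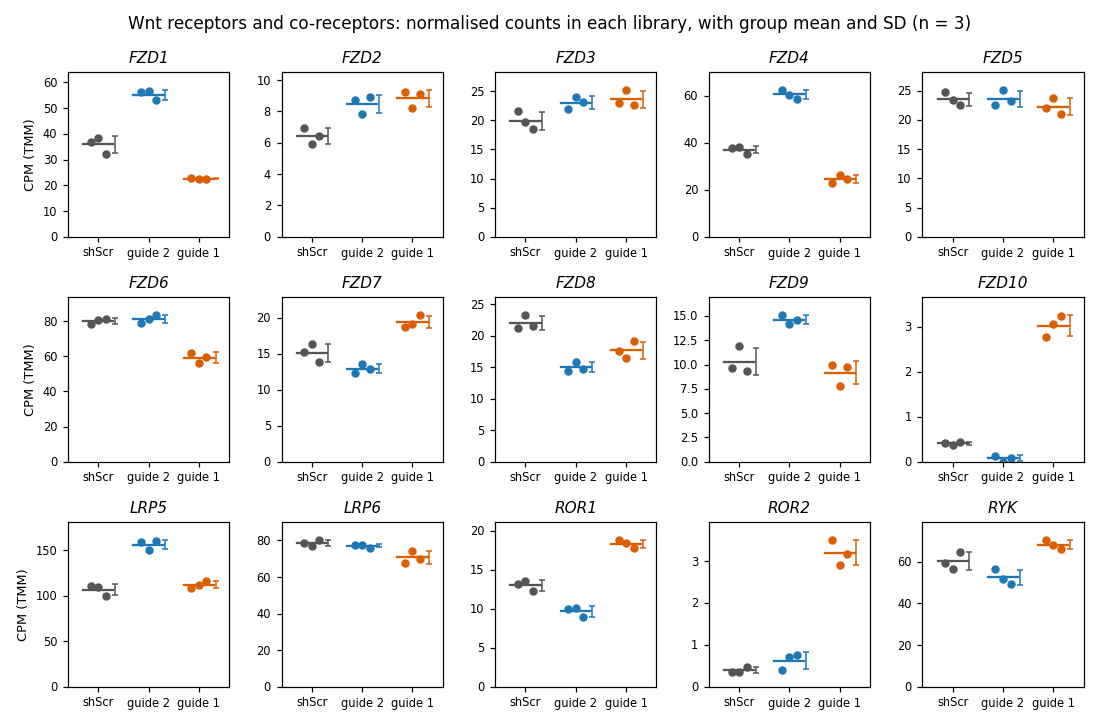
TMM-normalised CPM (vertical axis, linear from 0) of the 15 receptors and co-receptors, with 1 point for each library, the group mean as a line and the SD as a bar (n = 3). FZD1 and FZD4 are highest with guide 2, FZD10 and ROR2 are highest in the libraries labelled guide 1, and LRP6 and FZD5 lie close together in all groups.

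The remaining receptors, FZD2, FZD3, FZD5, FZD6, FZD8, LRP5, LRP6 and RYK, together with CTNNB1 were not called in any comparison. The log2 fold changes of these 9 genes lay between −0.56 and 0.55 with guide 2, between −0.43 and 0.46 in the libraries labelled guide 1 and between −0.38 and 0.48 between the guides. Small size was not the same as overlap with the control. LRP5, the co-receptor, had a log2 fold change of 0.55 (SE 0.0485, adjusted p = 1.51e-10) with guide 2, and FZD8 of −0.56 (SE 0.0804, adjusted p = 1.07e-06), both just under 1.5-fold. FZD8 passed 1.5-fold with library totals alone (−0.71), with a minimum mean of 1 CPM (−0.60) and without replicate 2 of guide 2 (−0.598). Per length, FZD6 and LRP5 were the most abundant receptors with shScramble (66.8 ± 1.41 and 58.6 ± 2.92 TPM), followed by LRP6 (25.8 ± 0.874) and RYK (25.3 ± 2.11), which overlapped. With guide 2, LRP5 (80.1 ± 3.61 TPM) stood above FZD6 (63.1 ± 2.22), and likewise in the libraries labelled guide 1 (64.1 ± 2.68 and 51.3 ± 1.28).

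The secreted antagonists were higher in the libraries labelled guide 1. SFRP1, which binds Wnt proteins outside the cell, was at 2.36, 2.35 and 2.45 CPM with shScramble, 1.73, 1.99 and 2.17 CPM with guide 2 and 17.7, 20.2 and 20.6 CPM in the libraries labelled guide 1. It was raised in the latter (3.03, SE 0.118, adjusted p = 1.15e-18), and with guide 2 its log2 fold change was −0.28 (SE 0.168, adjusted p = 0.151). DKK3, a divergent member of the Dickkopf family, had 7, 11 and 3 counts, then 0, 0 and 1, then 28, 14 and 20. It was raised in the libraries labelled guide 1 (1.55, SE 0.452), but it passed the filter on low counts through them alone. It therefore had to differ from them. The ratio of shScramble to guide 2 was 17.2 with a counting interval of 2.77 to 712.1. DKK1, which blocks LRP5 and LRP6 and is itself a β-catenin target, did not pass the filter, with 2, 1 and 1 counts, then 0, 1 and 3, then 17, 10 and 6. Its ratio of guide 1 to shScramble was 8.20 with a counting interval of 2.92 to 31.8.

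The 5 direct targets and feedback genes of β-catenin did not all move in 1 direction. Against shScramble, 4 had a positive log2 fold change in each comparison, where 46.8% (guide 2) and 49% (guide 1) of all tested genes did. The exception was LGR5 with guide 2 and RNF43 in the libraries labelled guide 1. AXIN2, a scaffold of the β-catenin destruction complex and the most widely used reporter gene of the pathway, was at 3.33, 3.83 and 3.85 CPM with shScramble, 3.60, 5.54 and 4.39 CPM with guide 2 and 5.58, 6.22 and 6.78 CPM in the libraries labelled guide 1. Guide 2 overlapped shScramble (0.31, SE 0.159, adjusted p = 0.0957), whereas the libraries labelled guide 1 lay above it (0.76, SE 0.149, adjusted p = 5.64e-05). Of the AXIN2 exons, 25.2% overlap a gene on the same strand. LGR5, the R-spondin receptor known from intestinal stem cells, had 3, 10 and 8 counts, then 0, 0 and 1, then 114, 86 and 118. The libraries labelled guide 1 stood far above the others (3.88, SE 0.315). LGR5 passed the filter on low counts through those libraries alone, however, and so had to differ from them. The ratio of shScramble to guide 2 was 17.2 with a counting interval of 2.77 to 712.1.

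RNF43 and ZNRF3 encode related ubiquitin ligases that remove Frizzled receptors from the surface. RNF43 was at 7.40, 6.74 and 6.83 CPM with shScramble, 7.49, 10.6 and 10.6 CPM with guide 2 and 3.96, 4.67 and 3.27 CPM in the libraries labelled guide 1. It was lowered in the latter (−0.82, SE 0.146, adjusted p = 1.68e-05), and guide 2 gave 0.45 (SE 0.134, adjusted p = 0.00505), under 1.5-fold, or 0.60 without replicate 1 of guide 2. Of its exons, 20.3% overlap a gene on the opposite strand. ZNRF3 was at 20.9, 19.5 and 15.5 CPM, then 29.5, 31.4 and 31.8 CPM, then 23.9, 26.0 and 26.4 CPM. Both hairpin groups lay above shScramble, and the call was for guide 2 alone (0.72, SE 0.0829, adjusted p = 3e-08, against 0.44, SE 0.0828, adjusted p = 3.99e-05). NKD1, which inhibits Dishevelled, had the same order, at 6.53, 7.43 and 6.34 CPM, then 10.8, 10.6 and 9.97 CPM, then 7.64, 8.95 and 8.79 CPM. It was raised with guide 2 (0.62, SE 0.109, adjusted p = 1.76e-05). That rise was under 1.5-fold without replicate 3 of shScramble (0.58), with library totals alone (0.47) and with a minimum mean of 1 CPM (0.57). For ZNRF3 and NKD1 the direct comparison of the guides gave 0.28 and 0.30, neither of them called.

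LEF1 and TCF7, which are among the DNA-binding partners of β-catenin, were raised only in the libraries labelled guide 1. Of the other partners, TCF7L2 was at means of 17.1, 16.2 and 20.7 CPM in the order shScramble, guide 2 and guide 1. It was not called in any comparison, and TCF7L1 is described below. LEF1 was at 3.43, 2.85 and 3.06 CPM with shScramble, 2.69, 2.71 and 2.99 CPM with guide 2 and 16.6, 15.4 and 16.5 CPM in the libraries labelled guide 1. TCF7 was at 1.52, 1.91 and 1.88 CPM, then 1.82, 1.79 and 1.59 CPM, then 7.19, 8.23 and 7.42 CPM. For both genes guide 2 overlapped shScramble. The log2 rises in the libraries labelled guide 1 were 2.38 (SE 0.114, adjusted p = 1.31e-16) and 2.11 (SE 0.155, adjusted p = 1.46e-12), and both differed between the guides (−2.53, SE 0.12, adjusted p = 5.66e-17, and −2.13, SE 0.161, adjusted p = 1.65e-12). With guide 2 the log2 fold changes were −0.16 (adjusted p = 0.357) and −0.02 (adjusted p = 0.921). CTNNB1, which encodes β-catenin itself, was at means of 228 ± 5.78 CPM with shScramble, 280.4 ± 5.25 CPM with guide 2 and 207 ± 2.68 CPM in the libraries labelled guide 1 (SD, n = 3). Its groups did not overlap, but its log2 fold changes of 0.30 and −0.14 were under 1.5-fold.

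**Figure D5:**
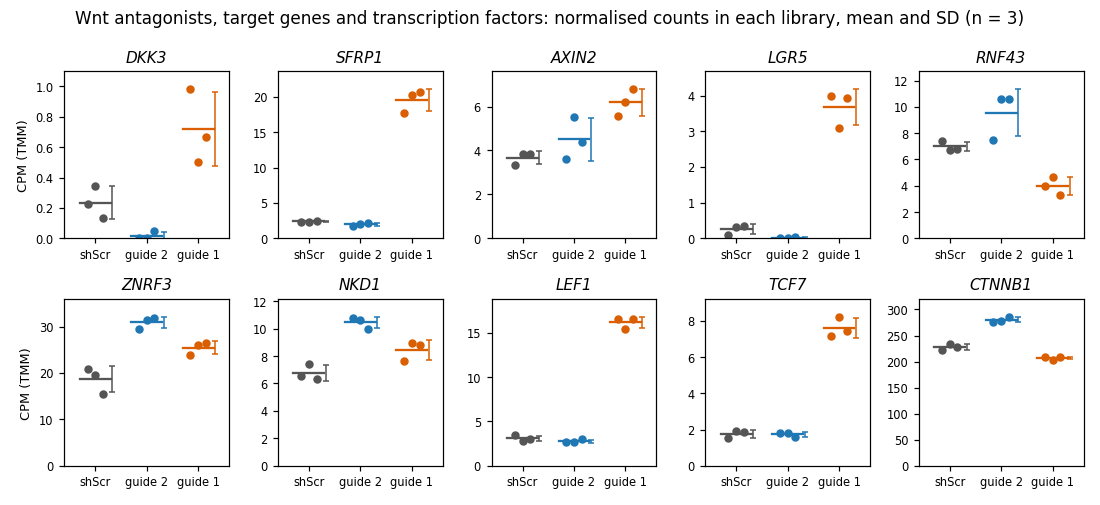
TMM-normalised CPM (vertical axis, linear from 0) of the 2 tested antagonists, the 5 target and feedback genes and the 3 genes of the transcriptional output, with 1 point for each library, the group mean as a line and the SD as a bar (n = 3). SFRP1, LGR5, LEF1 and TCF7 are far higher in the libraries labelled guide 1, whereas ZNRF3 and NKD1 are highest with guide 2.

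Across the 38 tested genes, all 3 guide 2 libraries lay above all 3 shScramble libraries for 16 and below them for 13, with overlap for 9, where 66.5% of all tested genes did not overlap (32.5% above and 34% below). The libraries labelled guide 1 lay above the shScramble libraries for 22 and below them for 11, with overlap for 5, where 71% of all tested genes did not overlap (36.5% above and 34.5% below). Between the guides 16 were above, 18 below and 4 overlapped, where 75.8% of all tested genes did not overlap (35.4% above and 40.3% below). These counts are larger than those of called genes because a difference beyond the spread of replicates was often under 1.5-fold.

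The rest of the pathway was covered by a list of 52 further genes, of which 44 were tested. With guide 2, 4 rose and 8 fell (27.3%, against 29.3% of all genes). The libraries labelled guide 1 gave 19 that rose and 5 that fell (54.5%, against 37.7%). Between the guides 7 were higher and 17 lower with guide 2 (54.5%, against 47.3%). WLS, the carrier that takes Wnt proteins to the cell surface, had 271, 278 and 201 counts with shScramble, 37, 42 and 34 with guide 2 and 2543, 2410 and 2639 in the libraries labelled guide 1. It was lowered by 2.44 on the log2 scale with guide 2 (−2.44, SE 0.113, adjusted p = 2.99e-16) and raised in the libraries labelled guide 1 (3.33, SE 0.0642, adjusted p = 3.36e-25). LGR6, TCF7L1, TLE4, VANGL2, PRICKLE1 and PRICKLE2 shared these directions, 7 genes in all, where 7.56% of all tested genes did. The opposite pair was shown by 0 of the 44 and by only 1.61% of all tested genes. SFRP5, PRICKLE1 and PRICKLE2 passed the filter on low counts only because of the libraries labelled guide 1. SFRP5 and PRICKLE1 reached its limit in no other library and so had to differ between those libraries and the rest. PRICKLE2 also reached it in 2 shScramble libraries. The 19 that rose in the libraries labelled guide 1 and the 17 lower between the guides include each of these genes. The 7 genes with opposite directions include PRICKLE1 and PRICKLE2. TLE4, a co-repressor that binds TCF factors, went from a mean of 8.19 CPM with shScramble to 1.07 CPM with guide 2 and 78.6 CPM in the libraries labelled guide 1 (−2.98, adjusted p = 3.72e-09, and 3.24, adjusted p = 1.05e-13). PRICKLE1, a planar polarity protein, was at means of 0.247 CPM with shScramble, 0.044 CPM with guide 2 and 4.87 CPM in the libraries labelled guide 1 (4.29, SE 0.272, for the last against the first).

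TCF7L1, a repressive TCF factor, was lowered with guide 2 (−2.46, SE 0.389, adjusted p = 4.23e-06). RSPO4, an R-spondin, was raised with guide 2 (1.30, SE 0.327, adjusted p = 0.00124), as was KREMEN2, a receptor for Dickkopf proteins (0.93, SE 0.0871, adjusted p = 4.68e-10). AMER1, which brings the destruction complex to the membrane, was raised with guide 2 (1.11) and in the libraries labelled guide 1 (0.97), and did not differ between the guides beyond the threshold (0.15, adjusted p = 0.0588). TNFRSF19, a β-catenin target, was lowered in both comparisons (−1.97 and −1.04). In the libraries labelled guide 1, the kinase GSK3B (−0.72) and the β-catenin co-factor BCL9L (−0.69) were lowered, with values of −0.03 and 0.01 with guide 2. Between the guides, TLE3 (0.92) and APC2 (0.85) were higher with guide 2, and DKK4 was at 0 in all libraries.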

How the data were processed

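The authors trimmed adapters and low-quality reads (Trim Galore, cutadapt, FastQC), used STAR for alignment to GRCh38 and featureCounts for gene assignment, per the labels and the paper's methods. Tool versions and the strand setting are not given in the sources used here. They deposited raw counts per gene for each of the 9 libraries, with exon coordinates and gene lengths. Symbols were found for 56558 of 60675 genes (93.2%), and the coordinates are the authors'.

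Samples were grouped by their titles. The counts were scaled by TMM and filtered with filterByExpr (minimum count 10, minimum total 15), and all 9 libraries were fitted in a single model without covariates with edgeR 4.0.16 in R 4.3.3. Its quasi-likelihood F test was used for the 3 comparisons, called at an adjusted p under 0.05 and 1.5-fold. DESeq2 1.42.0, other scalings, filters and left-out libraries were alternatives. The steps were tested on simulated data. TPM used the deposited gene lengths. Counting intervals were exact 95% intervals (Clopper-Pearson) of the summed counts, and the floor was 3 counts over a group. These cover counting error only. Promoter sequences are RefSeq's (GRCh38.p14).

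The Wnt genes, the 52 further pathway genes and the marker lists (luminal, basal, fibroblast, HEK293 line, and PC3 and DU145 lines) were chosen with earlier results of these data known. Values in every library are given for Wnt genes called in at least 1 comparison, and of the further genes the 3 largest changes in each direction are named at a mean of at least 1 CPM. Replicate numbers did not pair the libraries. Some marker genes of the luminal list are not reported here and were left out of its sum.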

Additional observations from a re-analysis of the deposited data

Results flagged for a closer look

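The libraries of guide 2 and those labelled guide 1 differed for METTL3 and for 24 of the 38 tested Wnt genes, where 47.3% of all tested genes differed (edgeR's quasi-likelihood test, adjusted p under 0.05 and at least 1.5-fold). METTL3 was lower with guide 2 by a log2 value of −0.86. Among the ligands, the log2 difference (guide 2 minus guide 1) was −2.58 for WNT2B, −3.48 for WNT3, −5.34 for WNT3A, −4.67 for WNT5B and −6.44 for WNT11, and 0.86 for WNT4, 1.75 for WNT6, 1.5 for WNT7B, 1.38 for WNT8B, 1.83 for WNT10A and 1.14 for WNT10B. Among the receptors it was 1.29 for FZD1, 1.29 for FZD4, −0.59 for FZD7, 0.67 for FZD9, −5.32 for FZD10, −0.92 for ROR1 and −2.35 for ROR2. It was −5.26 for DKK3, −3.31 for SFRP1, −7.61 for LGR5, 1.27 for RNF43, −2.53 for LEF1 and −2.13 for TCF7. DKK3 and LGR5 passed the filter on low counts through the libraries labelled guide 1 alone and so had to differ from them.

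The fitted values of WNT3A, WNT11, FZD10, DKK3 and LGR5 depend on a small added count, since guide 2 held between 1 and 5 counts of each over its 3 libraries. From the counts themselves, the ratio of guide 1 to guide 2 was 43.0 for WNT3A (counting interval 18.2 to 133.5), 101 for WNT11 (27.7 to 838.6), 42.5 for FZD10 (18.0 to 132), 50.5 for DKK3 (8.74 to 2026) and 259 for LGR5 (46.2 to 10260). These 5 genes were picked for their few counts with guide 2, so that their direction was set by the choice. The 7 HEK293 line genes summed to 3.51 to 5.28 CPM with guide 2 and 311.8 to 326.5 CPM with guide 1, and their part was not tested. WNT4, WNT6, WNT7B, WNT8B, WNT10A and WNT10B (6 ligands) were higher with guide 2 than with guide 1.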

How the results depend on the processing

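Scaling by library totals alone left 4 Wnt genes raised with guide 2 instead of 9, and WNT10A, FZD1, FZD4, ZNRF3 and NKD1 fell under 1.5-fold. Without the fold limit, 11910, 13188 and 14386 of all genes were called (guide 2, guide 1, guide 2 against guide 1), in place of 5645, 7265 and 9125, and 16, 22 and 16 Wnt genes were raised, with 12 lowered in the libraries labelled guide 1. With a minimum mean of 1 CPM, 6 Wnt genes were raised with guide 2, and WNT10A, FZD1 and NKD1 fell under 1.5-fold. With only the 6 libraries compared, 6 were lowered with guide 2, because FZD10, DKK3 and LGR5 were not tested there. With each library left out in turn, 5314 to 5625, 7040 to 7269 and 9074 to 9362 genes were called, and Wnt genes raised and lowered numbered 7 to 10 and 9 with guide 2, 14 to 16 and 5 to 8 in the libraries labelled guide 1, and 9 to 10 and 14 to 17 between the guides. The replicate numbers did not pair the libraries (correlations of same-numbered deviations −0.0981 to 0.0529), and with a replicate block 5494, 7140 and 9027 genes were called and WNT6 in the libraries labelled guide 1 was lost (−0.70, adjusted p = 0.0524).

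Signs turned only for values that were not called. Against shScramble with guide 2, WNT4 gave −0.11 with library totals and −0.0093 with the 1 CPM minimum, FZD5 gave −0.15 and −0.047, and −0.014 with 6 libraries, and FZD6 gave −0.13 and −0.031. Between the guides, FZD5 gave −0.050 and LRP6 −0.015 with library totals. With a library left out, values ranged from −0.066 to 0.21 for WNT4, −0.046 to 0.042 for FZD5 and −0.13 to 0.045 for TCF7, and between the guides from −0.063 to 0.024 for FZD3. FZD7 between the guides lost 1.5-fold with DESeq2, with no filter, with 6 libraries and without any of 3 single libraries (−0.58 to −0.55), and FZD9 with library totals (0.53). The cause was not tested. Of the values compared, 1453 kept their direction and call, 29 lost a call, 13 gained a call and 20 turned. WNT1, WNT9B and most counts under 10 are limited by depth.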
